A study of Danio rerio with 8 samples.

Results

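fn1, postn, sparc, dcn, lum, ndnf and ccdc80 encode secreted proteins of the extracellular matrix other than collagens, and their RNA was examined across 4 fractions sorted from zebrafish scales. They are 7 of the 32057 genes measured, picked by Ensembl identifier because their RNA was highest in scale osteoblasts, so the values of the osteoblast library chose them and are given below as a description. All 7 passed the filter on low values, which kept 14006 genes. The 7 genes and the gene lists used below were chosen with earlier results of these data known. Their shares of calls beside those of all genes are therefore a description in every contrast and not independent evidence.

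The fractions came from adult trap:GFP; osterix:mCherry zebrafish, labelled wild type, whose scales were cut with scissors and collected at 1 day post-fracture (dpf). OB were GFP- mCh+ cells. EV were mCh+ particles with little Hoechst DNA stain, which the labels call vesicles derived from osteoblasts. mOC, mature osteoclasts, were GFPhigh cells, and pOC, osteoclast precursors, were GFPlow mCh+ cells, so cells of both osteoclast gates could carry mCherry. The GFP was driven by upstream sequence of zebrafish trap (acp5a) and the mCherry by upstream sequence of medaka osterix (sp7). The gates are therefore reporter levels, and OB, EV and pOC were all gated on mCherry. The authors describe the GFPlow gate as apparently holding mainly monocytes and macrophages. By microscopy, its cells were mostly small and round with 1 nucleus. Some held GFP+ fragments and looked like phagocytes or mCh+ osteoblasts. Most GFP+ cells held mCherry+ particles, and the paper proposes that these were vesicles taken up from osteoblasts. Each fraction was labelled with 2 replicates from an experiment performed once. The 2 OB files held the same value for all 32057 genes and were counted as 1 library, which left 7 libraries and no measure of spread within OB. P-values measure only the spread between these libraries.

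In bone and in the bony dermal scales of fish, osteoblasts deposit a collagen-rich matrix that is then mineralised. Non-collagen proteins of that matrix link collagen fibrils to one another and to cells, set fibril thickness and bind mineral and growth factors. Osteoclasts, which arise from the myeloid lineage, attach to this matrix and resorb it with acid and proteases.

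The libraries held 11814593 to 24435509 reads in genes, and values are reads of a gene per 1000000 reads in genes (RPM), rounded by the authors to 2 decimals. A level of 3 reads corresponded to 0.123 to 0.254 RPM, and the lowest value of any of the 7 genes rested on 77 reads. The libraries were made from amplified cDNA without molecular identifiers, so such floors cover counting error only. The trap gene acp5 (ENSDARG00000019763) was at 12.5 RPM in OB, 35.6 and 43.2 RPM in EV, 1132 and 1538 RPM in mOC and 161 and 144 RPM in pOC. The osterix gene sp7 was at 5.42 RPM in OB and at no more than 2.09 RPM elsewhere, with 0 and 0.3 RPM in EV. The osteocalcin gene bglap was at 0 in every library. RPM is not scaled by transcript length, so levels are compared between fractions and not between genes.

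The 7 genes took up 0.842% of the reads in OB, 0.294% and 0.271% in EV, 0.0731% and 0.0622% in mOC and 0.312% and 0.325% in pOC. Each of the 7 was highest in OB, lowest in both mOC libraries and between these in every EV and pOC library. OB was above all other libraries for 21.7% of the genes tested, and the full order of OB over EV and pOC over mOC held for 4.88%. OB values chose the genes, so nothing is read from these counts. In bulk fractions, fewer cells of a type and less RNA per cell cannot be told apart.

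**Figure D1:**
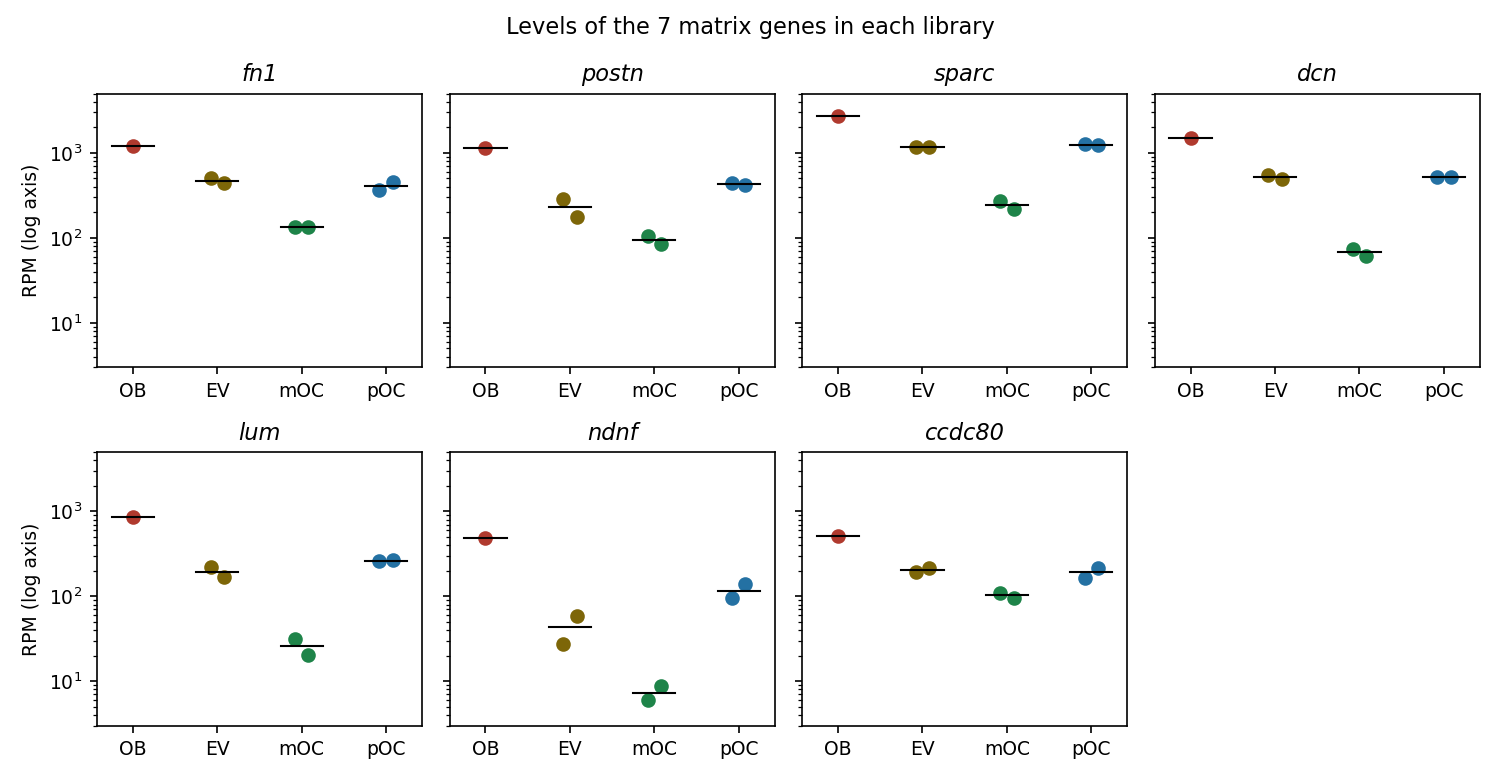
Level of each of the 7 genes in RPM (log axis) in the OB, EV, mOC and pOC libraries; each point is 1 library and each line the mean of a fraction. OB is the highest point in every panel and the 2 mOC points are the lowest, from 270.4 and 221 RPM of sparc to 5.95 and 8.72 RPM of ndnf.

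fn1 (ENSDARG00000006526) encodes fibronectin, a glycoprotein that cells assemble into fibrils through integrins and on which collagen is laid down. Its level was 1196 RPM in OB, 503 and 438 RPM in EV, 134 and 133 RPM in mOC and 366 and 457 RPM in pOC. EV and pOC values overlapped, and mOC lay below both. The EV libraries held 42.1% and 36.6% of the OB level, the mOC libraries 11.2% and 11.1%.

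postn (ENSDARG00000104267) encodes periostin, a matricellular protein of the periosteum and periodontal ligament in mammals that binds collagen and fibronectin. It reached 1144 RPM in OB, 287 and 177 RPM in EV, 105 and 83.5 RPM in mOC and 443 and 417 RPM in pOC. Both EV libraries lay between mOC and pOC, without overlap. Relative to OB, EV held 25.1% and 15.5%, mOC 9.19% and 7.3% and pOC 38.7% and 36.5%.

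sparc (ENSDARG00000019353) encodes osteonectin, a collagen- and calcium-binding glycoprotein abundant in bone. Its level was 2735 RPM in OB, 1160.35 and 1157 RPM in EV, 270.4 and 221 RPM in mOC and 1274 and 1224 RPM in pOC. The EV libraries were closer to one another than those of any other fraction, and both lay just under pOC. Of the 7 genes, sparc kept the largest part of its OB level in pOC, at 46.6% and 44.8%, and in 1 of the 2 EV libraries, at 42.4%.

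dcn (ENSDARG00000012066) encodes decorin, a small leucine-rich proteoglycan that coats collagen fibrils and limits their width. It was at 1480.5 RPM in OB, 546 and 492 RPM in EV, 74.5 and 60.6 RPM in mOC and 519 and 526 RPM in pOC. The pOC values fell inside the range of the EV values. The mOC libraries held 5.03% and 4.09% of the OB level.

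lum (ENSDARG00000045580) encodes lumican, a second proteoglycan of that family, which sets the spacing of collagen fibrils in the mouse cornea. Its level was 869 RPM in OB, 221 and 167 RPM in EV, 31.7 and 20.7 RPM in mOC and 258 and 267 RPM in pOC. EV lay under pOC without overlap, and mOC far below both. In mOC it held 3.64% and 2.37% of the OB level.

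ndnf (ENSDARG00000062936) encodes a secreted glycoprotein with fibronectin type III domains, first described from mouse neurons. It was at 481 RPM in OB, 27.4 and 59.4 RPM in EV, 5.95 and 8.72 RPM in mOC and 94.7 and 139 RPM in pOC. The 4 fractions did not overlap. Within EV and within pOC its libraries were further apart, relative to their level, than those of the other 6 genes. Its OB level stood furthest above the rest, at 3.46-fold the highest other library and 65.5-fold the mOC mean.

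ccdc80 (ENSDARG00000000002) encodes a secreted matrix-binding protein studied mainly in mouse adipose tissue. It was at 509 RPM in OB, 196 and 216 RPM in EV, 109.6 and 95.6 RPM in mOC and 164 and 218 RPM in pOC. EV and pOC overlapped. Its mOC level was nearest to OB of the 7 genes, at 21.5% and 18.8% of it, or 4.96-fold lower in the mOC mean than in OB.

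**Figure D2:**
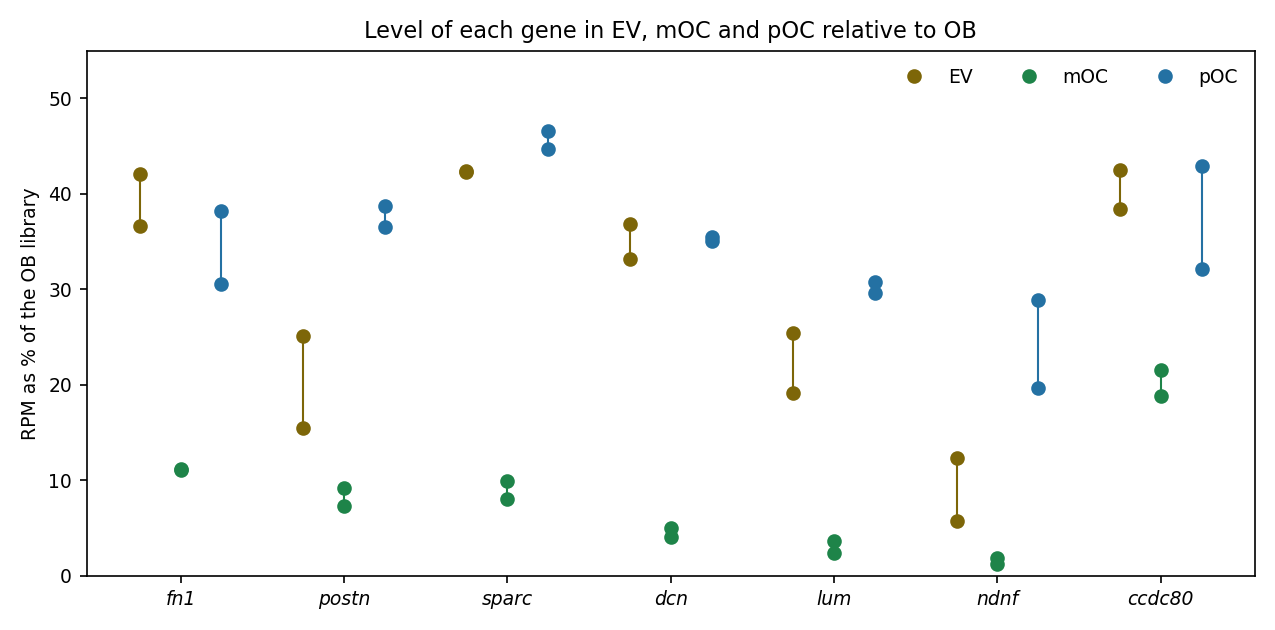
Level of each gene in EV, mOC and pOC as a percentage of its level in the OB library; each point is 1 library, and lines join libraries of 1 fraction. The mOC points run from 1.24% (ndnf) to 21.5% (ccdc80), and the EV points of ndnf, at 5.71% and 12.4%, lie below the EV points of the other 6 genes.

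The genes thus varied in how far they spread. On the log2(RPM + 1) scale the range across the 7 libraries was widest for ndnf, at 6.11, followed by lum at 5.33 and dcn at 4.59, and was narrowest for ccdc80, at 2.4. On the same scale, the difference of OB from the mean of the other 3 fractions ran from 1.68 for ccdc80 to 3.82 for ndnf, with 1.95 for sparc, 2.02 for fn1, 2.45 for postn, 2.49 for dcn and 2.98 for lum. dcn and lum had the closest profiles of any pair among the 7, with a root mean square distance of 0.27 over the 7 libraries after centring each gene. ndnf and ccdc80 were the most distant pair, at 1.38. Genes of other families lay nearer to dcn than lum did, such as dlx5 at 0.11, so closeness is not read as a family trait. sparc lay nearest to the mean profile of the 7 genes, at 0.22, and ndnf furthest, at 0.81.

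Whether the genes differed between the GFPlow (pOC) and the GFPhigh (mOC) gate was tested in a contrast that holds no OB value. A change between stages of osteoclasts was not tested, since the gates may hold other cells. The OB library still entered the filter and the moderation of the spread. With that library left out of the fit, the same 6, 0 and 7 genes passed in mOC minus pOC, EV minus pOC and EV minus mOC. The tests used limma on log2(RPM + 1) across the 14006 genes. Calls needed an adjusted p under 0.05 together with a difference of more than 1 on the log2 scale. In mOC relative to pOC, 6 of the 7 genes fell, against 3.66% of all genes tested that fell and 0.757% that rose. The median of the 7 differences was -2.35, against -0.15 for all genes. Both mOC libraries lay below both pOC libraries for 7 of 7 genes, an arrangement found for 34.4% of genes tested.

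The largest differences between mOC and pOC were those of ndnf, at -3.82 ± 0.42 on the log2 scale (SE, adjusted p = 0.006), and lum, at -3.31 ± 0.27 (adjusted p = 0.0019). dcn fell by 2.94 ± 0.18 on the log2 scale (adjusted p = 0.00118), sparc by 2.35 ± 0.16 (adjusted p = 0.00124), postn by 2.19 ± 0.27 (adjusted p = 0.00796) and fn1 by 1.61 ± 0.19 (adjusted p = 0.00695). The proteoglycans and ndnf therefore had larger differences than fibronectin, although the difference between genes was not itself tested. ccdc80 did not pass the test, at -0.88 ± 0.22 (adjusted p = 0.0764, 95% interval -1.39 to -0.36). With either pOC library left out, 0 of the 7 genes passed in limma, while all 7 had an unadjusted p under 0.05, as lower, against 7.91% of all genes without pOC replicate 1 and 7.58% without pOC replicate 2. Adjusted p was 0.103 to 0.177 for the 6 genes without pOC replicate 1 and 0.0725 to 0.169 without pOC replicate 2. With mOC replicate 1 or mOC replicate 2 left out, 3 genes passed, namely dcn, lum and sparc. With limma's trend and robust settings off, 5 passed, and fn1 did not (adjusted p = 0.0633). In a limma fit of only the mOC and pOC libraries 6 passed, with adjusted p from 3.75e-05 for dcn to 0.0007 for fn1. ccdc80 had an adjusted p of 0.0229 in that fit and missed the fold minimum. The share of all genes called was not counted under these alternatives, so fewer calls need not be particular to the 7 genes.

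EV, particles rather than cells, were set against both osteoclast gates. Relative to mOC, all 7 genes rose in EV, against 6.58% of all genes tested that rose and 5.09% that fell, and the median difference was 2.24 against -0.04 for all genes. Both EV libraries lay above both mOC libraries for 7 of 7 genes, as for 26.3% of genes tested. dcn had the largest difference, 2.93 ± 0.18 on the log2 scale (adjusted p = 0.000575), followed by lum at 2.86 ± 0.27 (adjusted p = 0.00162), ndnf at 2.33 ± 0.42 (adjusted p = 0.0156) and sparc at 2.24 ± 0.16 (adjusted p = 0.000734). fn1 was 1.81 ± 0.19 higher (adjusted p = 0.00219). The difference of postn was 1.26 ± 0.27 (adjusted p = 0.0265) and that of ccdc80 was 1.00 ± 0.22 (adjusted p = 0.029), which sits on the fold threshold.

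The EV calls of fn1, dcn, lum and sparc held in each of the 19 alternatives tried. The call of ccdc80 was lost in 13 of them, that of postn in 9 and that of ndnf in 7. Without EV replicate 1, the difference of postn was 0.91 and 6 genes passed. Without EV replicate 2, that of ccdc80 was 0.93 and again 6 passed. Leaving out mOC replicate 1, mOC replicate 2, pOC replicate 1 or pOC replicate 2 left 4 genes each time, which were fn1, dcn, lum and sparc. edgeR on recovered reads called the same 4, and DESeq2 called 6, all but ccdc80. The call rule of the authors' methods, also among the 19, used an F test over all fractions, OB included. It therefore did not test EV against mOC alone. The share of all genes called was not counted under these alternatives.

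Relative to pOC, 0 of the 7 genes passed in EV by limma, with 2 at an unadjusted p under 0.05, postn and ndnf, both lower, as for 12.1% of all genes tested. The background was low too, at 0.0143% of genes tested higher and 0.0214% lower. The difference was 0.20 for fn1 (95% interval -0.24 to 0.64), -0.01 for dcn (-0.44 to 0.42), -0.11 for sparc (-0.49 to 0.27) and 0.12 for ccdc80 (-0.39 to 0.64). It was -0.45 for lum (-1.08 to 0.18), -0.93 for postn (-1.56 to -0.30) and -1.48 for ndnf (-2.48 to -0.49), so for these 3 genes a halving or more in EV was inside the interval. Both EV libraries lay below both pOC libraries for 4 genes, postn, lum, sparc and ndnf, as for 28.3% of genes tested, and the libraries overlapped for the other 3. In 0 of the 7 did both EV libraries lie above both pOC libraries, as for 17.1% of genes tested. The difference of postn was -1.28 without EV replicate 1, and that of ndnf was -2.02 without EV replicate 2. Each of these fits had 1 EV library and so no spread within EV. Nothing is read from calls in them, and the share of all genes called was not counted.

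**Figure D3:**
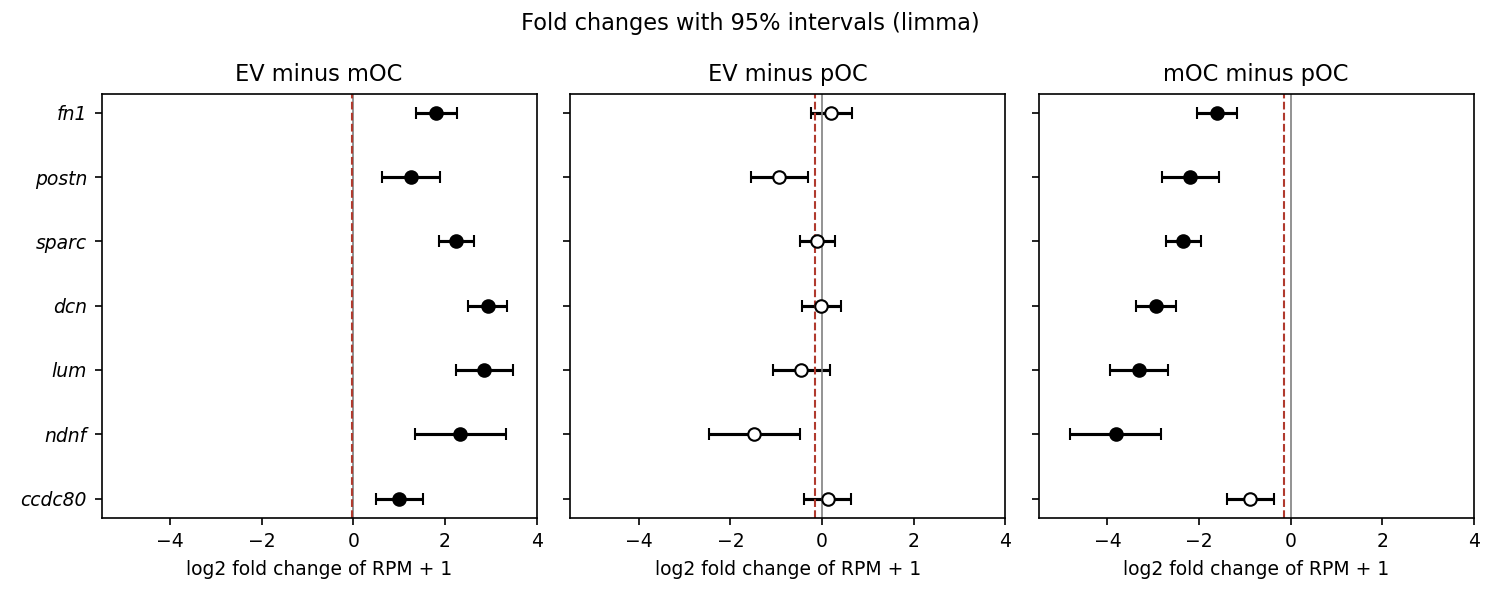
Difference of each gene in EV minus mOC, EV minus pOC and mOC minus pOC on the log2(RPM + 1) scale, with 95% intervals from limma; filled points passed the test and the dashed line is the median of all genes tested. All 7 intervals of EV minus mOC lie above 0 and all 7 of mOC minus pOC below 0, while 5 of the 7 of EV minus pOC cross 0.

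Relatives of the 7 genes, which may share reads with them, were low or had another order. A second gene with the symbol fn1 (ENSDARG00000019815) was at 134 RPM in OB, 67.3 and 77.6 RPM in EV, 83.0 and 47.4 RPM in mOC and 124 and 161 RPM in pOC, so OB was inside the pOC range and EV inside that of mOC. Its difference of mOC from pOC did not pass (-1.16 ± 0.31, adjusted p = 0.0985). A second postn (ENSDARG00000043806) stayed between 0.2 and 5.96 RPM in all 7 libraries. ndnfl was at 7.89 RPM in OB, 0.1 and 0 RPM in EV, 0 in both mOC libraries and 3.15 and 1.48 RPM in pOC. ccdc80l2 was at 6.29 RPM in OB, with 2.3 RPM the highest value elsewhere, and sparcl1, at 2.07 RPM in OB, was higher in 1 mOC and 1 pOC library.

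Other genes of the matrix, 178 of them tested in 10 lists and among the relatives, were counted without the 7. The lists were also chosen with earlier results known, so their shares are given as a description. In mOC relative to pOC, 43 of these 178 genes fell (24.2%) and 1 rose (0.562%), against 3.66% and 0.757% of all genes tested. The median was -1.29, against -0.15 for all genes. In EV relative to mOC, 44 rose (24.7%) and 3 fell (1.69%), against 6.58% and 5.09% of all genes tested. The median was 0.74, against -0.04 for all genes. In EV relative to pOC, 0 passed in limma, with 8 higher and 41 lower at an unadjusted p under 0.05, a level that 4.65% of all genes tested passed as higher and 12.1% as lower. In OB relative to the mean of the other fractions, 47 were higher and 2 lower, with a median of 1.78 against 0.11 for all genes, of which 2.1% were higher and 2.09% lower. That OB comparison assumes that the single OB library varies like the others, and its count of higher genes was 0 without pOC replicate 1, without pOC replicate 2 or with limma's trend and robust settings off. It was 103 and 97 without EV replicate 1 or 2 and 19 and 10 without mOC replicate 1 or 2.

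These counts moved with single libraries, and the share of all genes called was not counted with a library left out. The count of genes lower in mOC than in pOC was 84 without EV replicate 1 and 84 without EV replicate 2, 16 without mOC replicate 1, 6 without mOC replicate 2, 0 without pOC replicate 1 and 1 without pOC replicate 2. The count of genes higher in EV than in mOC was 72 without EV replicate 2, 20 without mOC replicate 1, 12 without mOC replicate 2 and 18 without either pOC library.

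**Figure D4:**
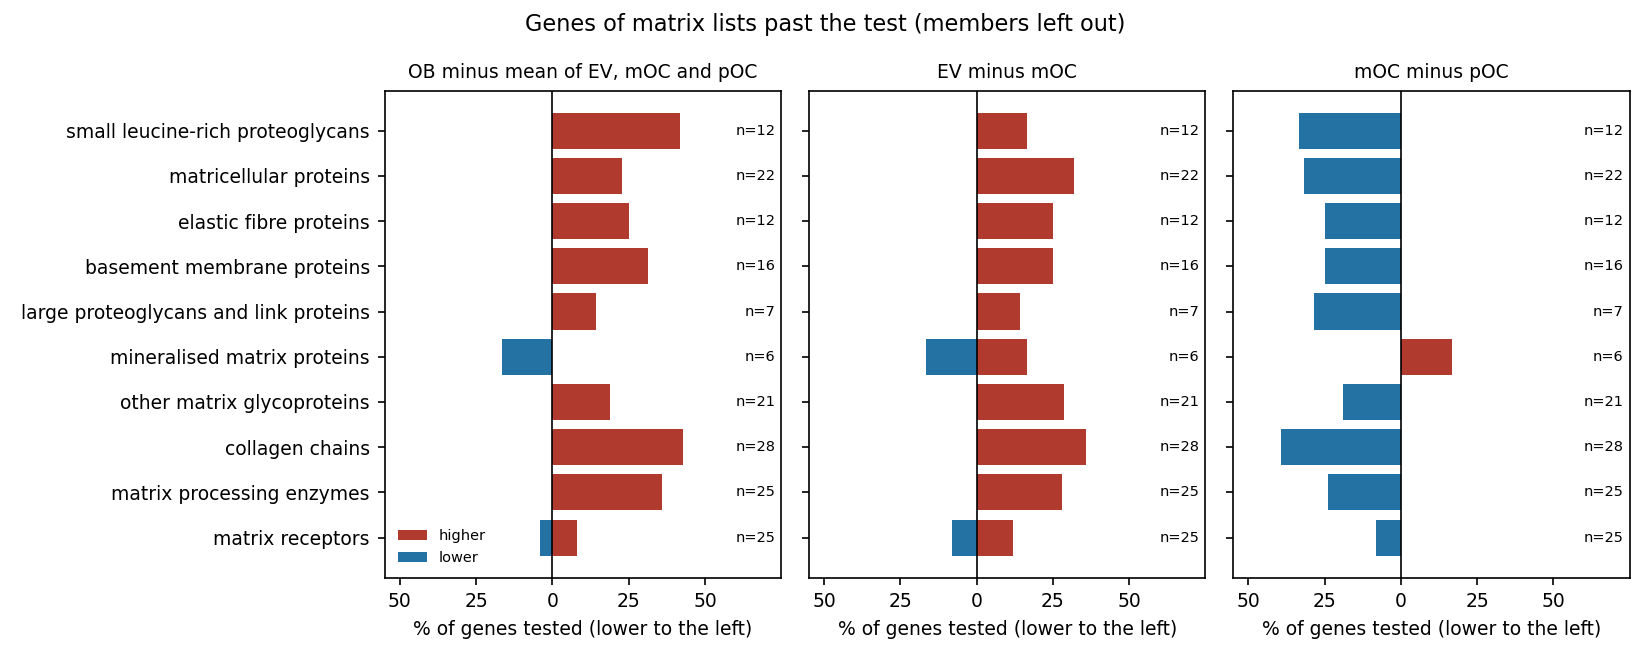
Share of genes tested in each matrix list (the 7 genes left out) that passed as higher (to the right) or lower (to the left) in OB minus the mean of EV, mOC and pOC, EV minus mOC and mOC minus pOC; n is the number of genes tested in the list. Of 28 collagen chains, 12 passed as higher in OB, 10 as higher in EV than in mOC and 11 as lower in mOC than in pOC. Of all genes tested, 2.1%, 6.58% and 3.66% did. The OB panel rests on a single OB library without a measure of its spread. The mineralised matrix list alone had a gene that passed as higher in mOC than in pOC.

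Among small leucine-rich proteoglycans, the family of dcn and lum, 5 of 12 genes were higher in OB, 2 rose in EV relative to mOC and 4 fell in mOC relative to pOC. These shares were 41.7%, 16.7% and 33.3%, against 2.1%, 6.58% and 3.66% of all genes tested. The OB shares, here and for the lists below, rest on a single OB library without a measure of its spread. They carry the limits given above for the OB comparison. Biglycan, bgn (ENSDARG00000017884), was at 228 RPM in OB, 121 and 195 RPM in EV, 10.4 and 7.45 RPM in mOC and 85.2 and 74.2 RPM in pOC, and its difference of EV from mOC was 3.98 ± 0.31 (adjusted p = 0.000946). Asporin, aspn, had 155 RPM in OB, 14.7 and 24.4 RPM in EV, 16.1 and 11.1 RPM in mOC and 56.3 and 62.9 RPM in pOC. In EV it overlapped with mOC, unlike that bgn gene, dcn and lum. A second bgn (ENSDARG00000002945) was at 7.16 RPM in OB, 0 and 0.1 RPM in EV, 1 and 1.02 RPM in mOC and 0.74 and 0.66 RPM in pOC.

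Among matricellular proteins, the class of postn and sparc, 5 of 22 were higher in OB, 7 rose in EV relative to mOC and 7 fell in mOC relative to pOC. That is 22.7%, 31.8% and 31.8%, against 2.1%, 6.58% and 3.66% of all genes tested. The tenascin gene tnn had 88.9 RPM in OB, 91.6 and 42.7 RPM in EV, 1.08 and 1.27 RPM in mOC and 24.2 and 15.2 RPM in pOC. Its difference of EV from mOC, 4.87 ± 0.46 (adjusted p = 0.00166), exceeded that of each of the 7 genes. The growth-regulating matrix protein gene ccn1, in contrast, had 1261 RPM in OB, 129 and 103 RPM in EV, 167 and 207 RPM in mOC and 399 and 476 RPM in pOC. It lay lower in EV than in mOC in both libraries, without passing the test (-0.69 ± 0.21, adjusted p = 0.0854).

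Of 28 collagen chains, 10 rose in EV relative to mOC (35.7%), 11 fell in mOC relative to pOC (39.3%) and 12 were higher in the OB library (42.9%). Over all genes tested, the shares were 6.58%, 3.66% and 2.1%. col1a2, a chain of type I collagen, was at 17068 RPM in OB, 4527 and 3050.3 RPM in EV, 1455 and 699.7 RPM in mOC and 6182 and 6537 RPM in pOC. Of 25 genes for matrix processing, 9 were higher in OB (36%), 7 rose in EV relative to mOC (28%) and 6 fell in mOC relative to pOC (24%), against those same shares of all genes. The collagen chaperone gene serpinh1 (ENSDARG00000019949) had 1523 RPM in OB, 92.1 and 132 RPM in EV, 106 and 61.9 RPM in mOC and 552 and 577 RPM in pOC, so that EV and mOC overlapped. The procollagen enhancer gene pcolcea, in contrast, had 511 RPM in OB, 158 and 198 RPM in EV, 34.8 and 21.1 RPM in mOC and 184 and 176 RPM in pOC, and EV and pOC overlapped.

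Basement membrane genes passed as higher in OB in 5 of 16 cases (31.25%), elastic fibre genes in 3 of 12 (25%) and other matrix glycoproteins in 4 of 21 (19%). Of all genes tested, 2.1% did. In EV relative to mOC, 4 (25%), 3 (25%) and 6 (28.6%) of these lists rose, against 6.58% of all genes tested. In mOC relative to pOC, 4 (25%), 3 (25%) and 4 (19.0%) fell, against 3.66%. In these contrasts 0 passed the other way, against 5.09% and 0.757% of all genes. The median basement membrane difference of EV from mOC was -0.05, beside -0.04 for all genes. The nidogen gene nid1 (ENSDARG00000068710) was at 932 RPM in OB, 338 and 271 RPM in EV, 53.8 and 35.9 RPM in mOC and 264 and 345 RPM in pOC. The fibulin gene efemp2 (ENSDARG00000094324) had 1004 RPM in OB, 660.2 and 401 RPM in EV, 63.7 and 53.5 RPM in mOC and 217 and 209 RPM in pOC, with EV above pOC. Of 25 receptors for matrix, 2 passed as higher in OB (8%) and 1 as lower (4%), against 2.1% and 2.09% of all genes tested. The lower one was the hyaluronan receptor gene cd44b. Among 7 large proteoglycan and link protein genes, 1 was higher in OB (14.3%), 1 rose in EV relative to mOC (14.3%) and 2 fell in mOC relative to pOC (28.6%). Over all genes tested, the shares were 2.1%, 6.58% and 3.66%, and 0 of the 7 passed the other way.

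Matrix genes with another order were present. The osteopontin gene spp1, a phosphoprotein of mineralised tissue, was at 475 RPM in OB, 1718 and 861 RPM in EV, 15928 and 10503 RPM in mOC and 4487 and 2119 RPM in pOC. It was the only gene of the lists that rose in mOC relative to pOC (2.07 ± 0.44, adjusted p = 0.0482), a call lost without either mOC or either pOC library, and it fell in EV relative to mOC by 3.41 ± 0.44 on the log2 scale (adjusted p = 0.005), a call lost without either mOC library. The versican gene vcanb, a large proteoglycan, was at 296 RPM in OB, 1271 and 1189 RPM in EV, 51.3 and 54.8 RPM in mOC and 899 and 797 RPM in pOC. It shared the low mOC level of the 7 genes, with an mOC minus pOC difference of -3.97 ± 0.17 (adjusted p = 0.00037), but OB lay below EV and pOC.

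Genes with the profiles most like those of the 7 were sought among 6205 named genes with a mean of at least 10 RPM, by the distance defined above over the 7 libraries. The distance includes the OB value that chose the 7, so neighbours high in OB were built in. Nothing is read from the kinds of gene found, and levels are given for examples only. Closest to the mean of the 7 were cxcl18b at 0.15, mxra8 (ENSDARG00000062129) at 0.17, pdgfrb at 0.19, colec12 at 0.19 and hgd at 0.20. pdgfrb, a growth factor receptor gene of mesenchymal cells, was at 90.6 RPM in OB, 15.6 and 15.2 RPM in EV, 4.25 and 3.47 RPM in mOC and 19.9 and 25.6 RPM in pOC. The nearest to dcn was dlx5, a transcription factor gene of the osteoblast lineage, at 0.11, with 41.7 RPM in OB, 15.2 and 15.4 RPM in EV, 1.47 and 1.27 RPM in mOC and 14.98 and 16.1 RPM in pOC. abcc6b.1 was nearest to fn1, at 0.12, fstl1 to postn, at 0.18, hgd to sparc, at 0.16, c1qtnf5 to lum, at 0.17, and ski to ccdc80, at 0.15. ndnf had no neighbour as close, its nearest being fpr1, at 0.40.

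Marker sums that moved across the same libraries were set beside the 7 genes. The 9 fibroblast markers summed to 604 RPM in OB, 145 and 203 RPM in EV, 30.7 and 28.6 RPM in mOC and 197 and 218 RPM in pOC, with 8 or 9 of the 9 above 0 in every library and tcf21 at 0 outside OB. The 14 osteoblast markers summed to 2758 RPM in OB, 1435 and 668 RPM in EV, 3342 and 2207 RPM in mOC and 2507 and 1615 RPM in pOC, with phex, an endopeptidase gene of mineralising cells, at 3149 and 2139 RPM in mOC. Without phex, a step chosen after its values were seen, the other 13 summed to 2371 RPM in OB, 1125 and 337 RPM in EV, 193 and 67.9 RPM in mOC and 1704 and 1032.4 RPM in pOC. OB was then highest and mOC lowest, as for the 7 genes. Most of that sum in OB came from both genes with the symbol col10a1, at 427 and 1771 RPM. Not every marker followed the order. alpl was at 27.96 RPM in OB and 37.15 RPM in EV replicate 2, and entpd5b was lowest in OB, at 3.55 RPM. The order of the sum is thus mainly that of col10a1. The 10 osteoclast markers summed to 3212 RPM in OB, 4031 and 4202 RPM in EV, 18939 and 19352 RPM in mOC and 5795 and 6453 RPM in pOC, with calcr at 0 in every library.

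The 19 macrophage markers summed to 1284 RPM in OB, 10405 and 12216 RPM in EV, 1598 and 1575 RPM in mOC and 10220 and 8543 RPM in pOC, of which lgmn made up 9101 and 10725 RPM in EV and 8549 and 7069 RPM in pOC. Without lgmn, left out after its values were seen, the other 18 summed to 301 RPM in OB, 1304 and 1492 RPM in EV, 999 and 1107 RPM in mOC and 1670.4 and 1474 RPM in pOC. Single markers differed in order: csf1ra was at 92.2 and 91.9 RPM in EV, 173 and 201.2 RPM in mOC and 176 and 197 RPM in pOC, and spi1 at 644 and 911 RPM in EV, 713 and 779 RPM in mOC and 593 and 554 RPM in pOC. The 8 melanophore markers were at 78.1 and 897 RPM in EV and at 11.6 to 108 RPM in the other fractions, so EV replicate 2 stood apart. The 7 keratinocyte markers also differed within EV, at 9770.3 and 2570.1 RPM, and were at 5689.8 to 8417 RPM in the other fractions. Most of that sum was krt91, at 8306 and 2132 RPM in EV and 4709 to 7736 RPM in the other fractions. krt5 and epcam were at no more than 3.08 RPM in any library. The 4 xanthophore markers were at 38.5 RPM in OB, 202 RPM in both EV libraries, 1418 and 1255 RPM in mOC and 787 and 881 RPM in pOC. The part of fibroblast, macrophage, keratinocyte or pigment cell RNA in the levels of the 7 genes was not tested. Nor was the part of RNA from osteoblast vesicles taken up by cells of the pOC and mOC gates.

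**Figure D5:**
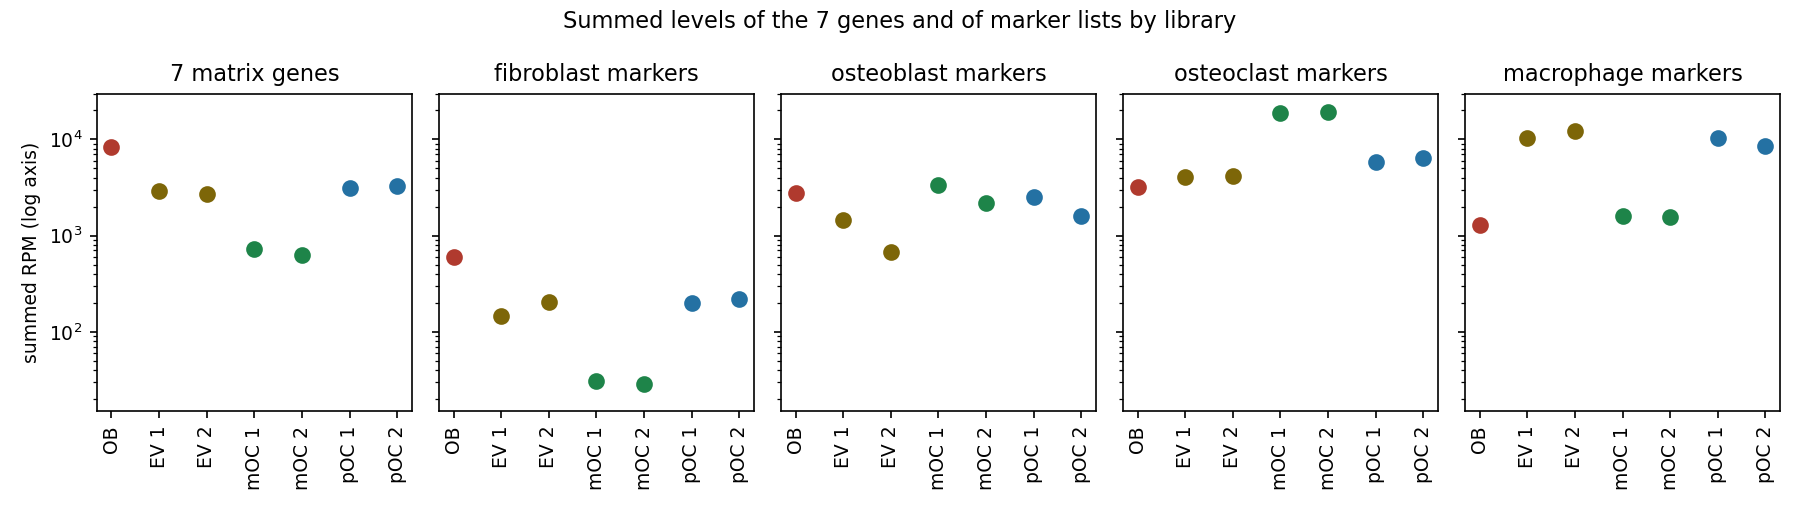
Summed RPM (log axis) of the 7 genes and of the fibroblast, osteoblast, osteoclast and macrophage marker lists in each of the 7 libraries. The sum of the 7 genes, 8415 RPM in OB against 731 and 622 RPM in mOC, is highest in OB and lowest in mOC, as is that of the fibroblast markers, and the 14 osteoblast markers are at 3342 RPM in mOC replicate 1, of which phex is 3149 RPM.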

How the data were processed

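RNA of 8 libraries from 4 sorted fractions was amplified by the authors with Quartz-Seq, which primes on poly-A and amplifies by PCR, and read on a NextSeq500. They mapped reads to GRCz11 with HISAT2 2.1.0 and deposited RPM values made with Subread 1.6.4. No annotation release or strand setting was given in the sources used here, so antisense or overlapping genes and close paralogs may share reads. RPM was used without further scaling. 100% of values were whole reads within 0.005 RPM in every library, which gave the depth. The symbols come from the files and do not separate paralog copies. The number of sample columns not used was 0.

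limma 3.58.1 (R 4.3.3, trend and robust) was fitted to log2(RPM + 1) of the 14006 genes that reached 1 RPM in 2 or more libraries. The model had a mean for each of the 4 fractions and 3 residual degrees of freedom, 4 contrasts were taken, and p-values were adjusted by Benjamini-Hochberg within each contrast. The 5 OB, EV and mOC libraries were also tested with edgeR 4.0.16 and DESeq2 1.42.0 on recovered reads for EV minus mOC. The pOC libraries did not pass a separate check of whole reads at low values and were kept out of count tests. Steps were tested on simulated data. Tables and figures used Python 3.11.15, numpy 2.4.6, pandas 2.3.3 and matplotlib 3.10.9.

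The 7 genes and all lists were chosen with earlier results of these data known. Named were the 7 genes, their relatives, and examples taken from up to 4 genes per list with the smallest adjusted p in the OB contrast and up to 2 in the others, at a mean of at least 10 RPM, plus the nearest profiles. The text gives a selection of these.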

Additional observations from a re-analysis of the deposited data

How the results depend on the processing

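With 2 replicates a fraction and 1 OB library, calls of single genes rest on few degrees of freedom, and no OB library could be left out. Of the values of the 7 genes under alternatives, 416 stayed the same, 48 lost the call, 3 gained one, 4 changed sign and 5 moved. In contrasts without OB, the same meant the same direction and the same call, also for genes that had not passed. In the OB contrast, where the 7 genes had no call, it meant a shift within 1 SE, and moved meant a larger shift. The 416 are thus not a count of stable calls. Those that changed sign had not passed: ccdc80 in EV minus pOC was -0.012 under quantile normalization, and dcn was 0.028 under TMM scaling. With 1 library left out, ccdc80 ranged from -0.085 (pOC replicate 1) to 0.33 and dcn from -0.087 to 0.064 (EV replicate 2). The cause was not tested.

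Counts of the 7 genes were 4 higher in EV than mOC with no filter, with only the pair's libraries and with edgeR, and 1 lower in EV than pOC under the call rule of the methods. That rule took 1 F test over all fractions, OB included, with a minimum fold change between the pair. Its p does not test the pair alone and uses the OB values that chose the 7 genes. Nothing is therefore read from the counts under that rule, here or below. The share of all genes called was not counted under any of these alternatives, also for the other matrix genes below. Fewer or more calls need not be particular to the genes counted. The limma counts of the 7 genes depended on single libraries. With 1 library left out they ranged from 0 to 6 lower in mOC than pOC, 0 to 1 lower in EV than pOC and 4 to 6 higher in EV than mOC.

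For the other matrix genes, EV minus mOC gave 8 lower under quantile normalization, 8 under TMM, 5 with a pseudocount of 5 RPM, 6 with a filter at 5 RPM, 11 under the methods' rule, 10 with DESeq2 and 1 with edgeR, no filter or the pair alone, and 12 higher with edgeR, 29 with no filter and 18 with the pair alone. EV minus pOC gave 2 lower under quantile normalization, 1 with a pseudocount of 5 RPM, 2 with a filter at 5 RPM and 24 under the methods' rule, which also gave 4 higher. mOC minus pOC gave 0 higher with a pseudocount of 0.1 RPM, no filter or trend and robust off, 2 with the pair alone, and 18 lower with no filter, 84 with the pair alone and 67 under the methods' rule. The OB contrast gave 1 lower with a pseudocount of 0.1 RPM, 0 with no filter, and 0 higher and 0 lower with trend and robust off. With 1 library left out, the ranges were 0 to 2 higher and 0 to 84 lower in mOC minus pOC, 0 to 8 and 0 to 29 in EV minus pOC, 12 to 72 and 0 to 21 in EV minus mOC, and 0 to 103 and 0 to 3 in the OB contrast.

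Differences between replicates were weakly and positively correlated in every pair of fractions (0.0704 for EV and mOC, 0.0697 for EV and pOC and 0.172 for mOC and pOC). Numbers were not taken as pairs in the main fit, but such correlations cannot exclude pairing. A fit with the replicate block left 6, 0 and 7 of the 7 genes called in mOC minus pOC, EV minus pOC and EV minus mOC, and gave 2 and 7 other matrix genes lower in EV than pOC and mOC, and 1 lower in OB. Quantile normalization moved the median of all genes in mOC minus pOC to 0.06 from -0.15. Count tests of pOC or OB contrasts were not run.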
